A study of Mus musculus with 16 samples.

Results

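The autophagy machinery was followed in the left ventricle of mice as 53 genes of the count table: 5 of initiation, 15 of the lipid kinase and early membrane steps, 10 of conjugation, 5 ATG8 proteins, 6 cargo receptors and their chaperone, and 12 of autophagosome-lysosome fusion. The genes were chosen by symbol from these roles, with earlier results of these data known, so their counts against all tested genes are descriptive. All 53 of 53 were found among the 57186 gene IDs of the table, and all 53 passed the filter on low counts that left 15206 genes for testing.

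The mice were of the strain C57/BL6N and fell into 4 groups of 4 biological replicates: cKO TAC, WT TAC, cKO sham and WT sham. cKO stands for a cardiomyocyte-specific knockout of Tfeb (cKO-TFEB in the labels), and WT is the genotype given for the controls. In TAC, transverse aortic constriction, the aorta is tied partly shut so that the heart pumps against a higher pressure; sham is the control surgery. The labels do not state the Cre driver, whether the WT mice carried floxed alleles or Cre, the age, the sex or the time after surgery.

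In macroautophagy a double membrane grows around cytoplasm, closes into an autophagosome and fuses with the lysosome, where the content is degraded. The ULK1 kinase complex starts the process, the VPS34 lipid kinase complex marks the membrane, and a pair of ubiquitin-like conjugation systems attaches ATG8 proteins (the LC3 and GABARAP families) to it. Cargo receptors such as p62 bind both cargo and ATG8 proteins, and tethers and SNAREs join the vesicle to the lysosome. In the heart the pathway is known for removing damaged mitochondria and protein aggregates, and TFEB is known in other cells as a transcription factor of lysosomal and autophagy genes that binds the CLEAR motif.

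Libraries held 12946878 to 16347388 counts. Tfeb, the targeted gene, averaged 12.7 ± 2.34 CPM in cKO TAC and 29.1 ± 9.77 CPM in WT TAC, and 10.5 ± 1.74 CPM in cKO sham and 36.5 ± 3.94 CPM in WT sham (SD, n = 4 each; CPM is the count scaled to a common library total with TMM, a factor per library that evens out the trimmed mean of gene ratios). The fitted log2 fold change of Tfeb was -1.19 in TAC hearts (SE 0.20, adjusted p = 0.0138) and -1.80 in sham hearts (SE 0.20, adjusted p = 0.000604; edgeR quasi-likelihood test, Benjamini-Hochberg over all tested genes), and without WT TAC replicate 2 the adjusted p in TAC hearts was 0.0645. The 8 cardiomyocyte markers summed to 41072 to 56922 CPM in cKO TAC, 52624 to 62678 CPM in WT TAC, 60389 to 70700.3 CPM in cKO sham and 63261 to 70894 CPM in WT sham, and all 8 were detected. By gene, the fitted change of TAC over sham was negative for 7 of these 8 in cKO and 6 in WT mice, and positive for 1 and 2. The sums of fibroblast markers moved the other way: 7 genes summed to 3256 to 6519 CPM in cKO TAC, 2274 to 3401 CPM in WT TAC, 1049 to 1944 CPM in cKO sham and 817 to 1321 CPM in WT sham. The 8 macrophage markers summed to means of 444, 325, 294 and 205 CPM in the same order. In bulk tissue, fewer cells of a type and less RNA per cell cannot be told apart, and the part of these markers in the results below was not tested. Libraries WT TAC replicate 4 and WT sham replicate 3 carried 797 and 2391 CPM of the atrial transcripts Myl7, Sln and Myl4, against 2.06 to 249 CPM in the other libraries, so the counts of autophagy genes called below are also given without them.

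The transcripts of the pathway spanned a wide range of levels. Per kilobase of transcript, and averaged over the 16 libraries, Map1lc3a, which encodes LC3A, stood highest at 426 CPM per kb, followed by Sqstm1 (p62, the ubiquitin-binding receptor) at 254, Gabarap at 132, Bag3, a co-chaperone of selective autophagy of misfolded proteins, at 130.4, and Rab7, the late endosomal GTPase, at 109 CPM per kb. At the lower end were Atg2b, a lipid transfer protein, at 2.56, the LC3-processing protease Atg4c at 1.60 and Epg5, a tether, at 1.01 CPM per kb. The initiation kinases lay between: Ulk1 at 19.7 and Ulk2 at 14.1 CPM per kb. The 53 genes together summed to 3829 ± 26.3 CPM in cKO TAC, 3903 ± 85.1 CPM in WT TAC, 4333 ± 146 CPM in cKO sham and 4213 ± 227 CPM in WT sham, without scaling for length.

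After TMM scaling, TAC hearts had lower transcript levels of a subset of the machinery, with at least 1 gene in every role group. Averaged over both genotypes, 13 of 53 genes fell and 1 rose, so 24.5% of the genes were lower, against 18.6% of all tested genes, and 1.89% higher, against 20.2% of all tested genes. At an unadjusted p under 0.05 there were 17 lower and 1 higher, against 47.2% of all tested genes in either direction. The median log2 fold change of TAC over sham was -0.09 for the autophagy genes and -0.01 for all tested genes. Within WT mice 2 of 53 genes fell and 0 rose (background 6.14% lower, 9.7% higher; with the DESeq2 Wald test 7 fell and 0 rose, and 9 fell and 2 rose at an unadjusted p under 0.05 in edgeR, as did 31.3% of all tested genes in either direction), so the share called in WT mice was below the background. Within cKO mice 9 fell and 0 rose (background 12.4% lower, 14.2% higher; 11 fell and 0 rose with DESeq2, 12 and 0 at an unadjusted p under 0.05, with 38.3% of all tested genes in either direction; 4 fell with no filter on low counts), so 17% of the genes fell there. Without the 2 libraries rich in atrial transcripts the counts were 12 lower and 0 higher for the mean, 3 and 0 in WT, and 7 and 0 in cKO mice. The mean over genotypes uses the same libraries as the single-genotype comparisons, so these counts are not separate evidence.

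**Figure D1:**
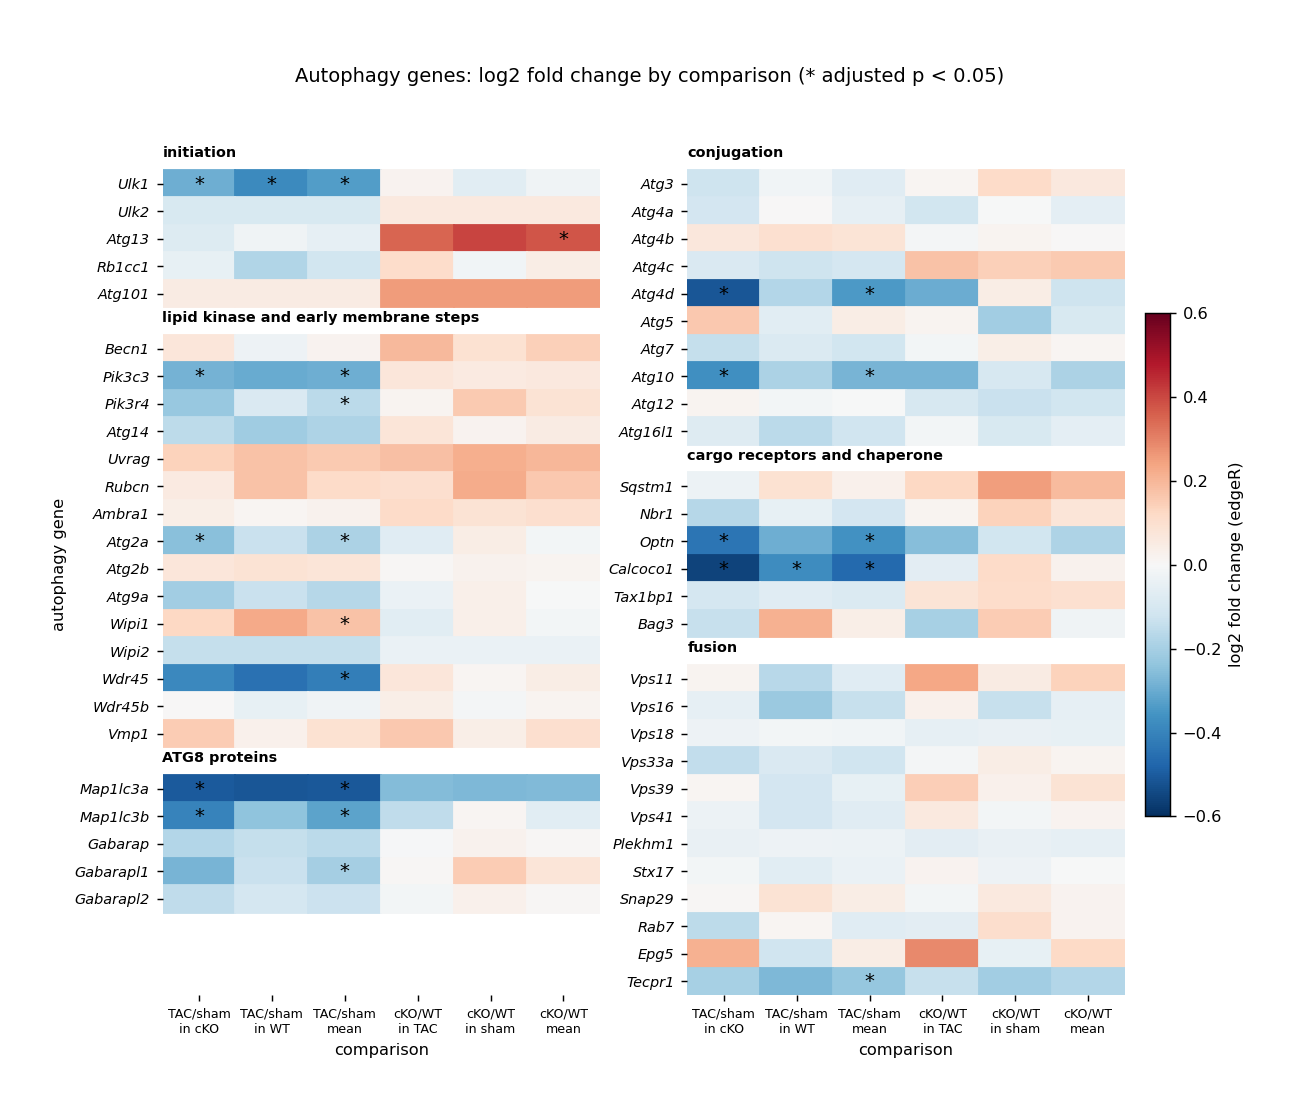
Log2 fold change (edgeR, colour scale from -0.6 to 0.6) of the 53 autophagy genes (rows, by role) in 6 comparisons (columns); an asterisk marks an adjusted p under 0.05. Blue cells with asterisks stand in the 3 columns of TAC over sham, and Wipi1 in the mean of both genotypes is a red cell with an asterisk. Between genotypes the single asterisk is at Atg13 in the mean of both surgeries.

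Among the initiation genes, Ulk1, the kinase that starts autophagosome formation, fell in both genotypes. Ulk1 was at 87.0, 89.0, 94.2 and 94.9 CPM in cKO TAC hearts, against 121, 93.2, 114 and 119 CPM in cKO sham hearts. In WT TAC hearts it was at 93.0, 99.4, 85.0 and 82.3 CPM, against 116, 125, 102 and 124 CPM in WT sham hearts. All WT TAC libraries lay below all WT sham libraries, while in cKO mice sham replicate 2 lay among the TAC libraries. The log2 fold change was -0.29 in cKO (SE 0.095, adjusted p = 0.0301) and -0.38 in WT mice (SE 0.095, adjusted p = 0.0115; edgeR). The WT call was kept in each fit that left out 1 library, and the cKO call was lost without any 1 of 5 of the libraries compared. The other initiation genes, Ulk2, Atg13, Rb1cc1 (FIP200, the scaffold of the complex) and Atg101, did not pass in either genotype.

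Of the lipid kinase and early membrane genes, 4 of 15 fell and 1 rose in the mean of both genotypes. Of all tested genes 18.6% fell and 20.2% rose there. Pik3c3, the catalytic subunit VPS34, was at 17.9, 18.3, 20.2 and 19.5 CPM in cKO TAC, against 23.1, 21.3, 20.9 and 27.0 CPM in cKO sham. WT TAC hearts had 16.9, 18.1, 17.3 and 19.8 CPM, against 19.1, 23.4, 22.5 and 23.7 CPM in WT sham. The cKO groups did not overlap, and in WT mice 1 TAC library lay above the lowest sham library. Its log2 fold change was -0.28 in cKO (adjusted p = 0.0466, lost in 9 of 16 fits that left out 1 library), -0.30 in WT (adjusted p = 0.0542) and -0.29 in the mean (SE 0.072, adjusted p = 0.00387). Pik3r4, the regulatory subunit VPS15 of the same kinase, had a mean log2 fold change of -0.16 (adjusted p = 0.0452), Wdr45 (WIPI4), which binds the lipid that the kinase makes, of -0.42 (adjusted p = 0.00978), and Atg2a, the lipid transfer protein that WIPI4 partners, of -0.19 (adjusted p = 0.0214; edgeR). Wdr45 averaged 12.5 ± 2.64 CPM in cKO TAC and 16.3 ± 2.45 CPM in cKO sham, and 11.8 ± 1.15 CPM in WT TAC and 16.2 ± 3.56 CPM in WT sham; it shares exon sequence on the same strand with Gm45208 in the GRCm38 annotation, so part of its counts may belong to that gene. Wipi1, another binder of the kinase's lipid product, was the gene that rose: 114 ± 3.83 CPM in cKO TAC and 105 ± 7.00 CPM in cKO sham, and 119.5 ± 7.10 CPM in WT TAC and 102 ± 13.6 CPM in WT sham (mean log2 fold change 0.18, SE 0.065, adjusted p = 0.0388). The rise of Wipi1 was lost in 11 of 16 fits that left out 1 library, and the falls of Pik3r4 and Gabarapl1 in 10 and 9. Becn1, Atg14, Uvrag, Rubcn, Ambra1, Atg2b, Atg9a, Wipi2, Wdr45b and Vmp1 did not pass in any comparison with sham.

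Among the conjugation genes, Atg4d and Atg10 passed. ATG4D is a protease that trims ATG8 proteins, and ATG10 is the E2-like enzyme that links ATG12 to ATG5. Atg4d was at 42.6, 43.6, 43.8 and 42.9 CPM in cKO TAC, against 64.9, 52.3, 68.5 and 61.3 CPM in cKO sham. WT TAC hearts had 56.7, 61.7, 49.5 and 44.5 CPM, against 77.4, 52.8, 52.5 and 56.8 CPM in WT sham. The cKO groups were apart, with the cKO TAC libraries within a narrow band, and the WT groups overlapped. The fitted log2 fold change of Atg4d was -0.51 in cKO (SE 0.12, adjusted p = 0.00574), and the interaction, the log2 fold change of TAC over sham in cKO less that in WT mice, was -0.34 with an unadjusted p of 0.068 and an adjusted p of 0.946, so a difference between the genotypes was not shown. Kri1, whose exons overlap those of Atg4d on the opposite strand, had a log2 fold change of 0.15 in cKO (adjusted p = 0.606). Atg10 averaged 14.1 ± 2.15 CPM in cKO TAC and 18.1 ± 1.90 CPM in cKO sham, with the libraries of the groups apart (log2 fold change -0.37, adjusted p = 0.0392; lost in 5 of 16 fits that left out 1 library). The other ATG8 proteases Atg4a, Atg4b and Atg4c did not pass in any comparison. The core conjugation genes Atg3, Atg5, Atg7, Atg12 and Atg16l1 (-0.16 in WT mice, edgeR adjusted p = 0.189) did not pass. At the bounds of the 95% interval, their log2 fold changes for TAC over sham in the mean were all within 0.5 of zero. That held for 48 of the 53 genes, with genes that passed, such as Atg2a, among them. Lying within this band therefore does not show that a gene was unchanged.

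The ATG8 family held the most abundant transcript of the pathway per kilobase, Map1lc3a. In the mean of both genotypes 3 of its 5 members fell, against 18.6% of all tested genes. Map1lc3b, which encodes LC3B, the usual marker of autophagosomes, was at 165, 158, 183 and 171 CPM in cKO TAC, against 225, 206, 237 and 227 CPM in cKO sham. WT TAC hearts had 190.1, 184, 186 and 192 CPM, against 255, 215, 198 and 219.9 CPM in WT sham. In both genotypes all TAC libraries lay below all sham libraries. The log2 fold change of Map1lc3b was -0.40 in cKO (SE 0.084, adjusted p = 0.00220), -0.24 in WT (SE 0.084, adjusted p = 0.0598) and -0.32 in the mean (SE 0.060, adjusted p = 0.000418; edgeR), and the mean call was kept in each of the 16 fits that left out 1 library.

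Map1lc3a was at 324, 338, 409 and 353 CPM in cKO TAC, against 512, 432, 585 and 488 CPM in cKO sham. WT TAC hearts had 409.7, 463, 435 and 397 CPM, against 954, 520.0, 491 and 469.5 CPM in WT sham. The groups were apart in both genotypes, and WT sham replicate 1 stood far above the other WT sham libraries. The same library had 1248 CPM of summed erythrocyte markers, against 325 to 533 CPM in the other WT sham libraries, and 7100.03 CPM of Tnni3, a cardiomyocyte troponin, against 3516 to 4562 CPM; the part of these in the Map1lc3a level was not tested. The fitted log2 fold change was -0.50 in cKO (SE 0.18, adjusted p = 0.0442; lost in 7 of 16 fits that left out 1 library, with adjusted p up to 0.131) and -0.51 in WT (SE 0.18, adjusted p = 0.0563). Without WT sham replicate 1 these were -0.50 (adjusted p = 0.00121) and -0.21 (adjusted p = 0.191), and the mean over genotypes was -0.36 (adjusted p = 0.000937), against -0.51 (adjusted p = 0.00394) with it. Gabarapl1 averaged 91.0 ± 5.05 CPM in cKO TAC and 110.2 ± 7.69 CPM in cKO sham, and 90.5 ± 10.8 CPM in WT TAC and 99.3 ± 15.4 CPM in WT sham (mean log2 fold change -0.21, adjusted p = 0.0388). Gabarap and Gabarapl2, the other members of the GABARAP branch, did not pass.

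As a share of the summed ATG8 transcripts per kilobase, LC3A made up most of the family in every group. Map1lc3a held 54.4 ± 2.07% in cKO TAC and 58.6 ± 1.69% in cKO sham, and 58.1 ± 2.35% in WT TAC and 62.9 ± 4.56% in WT sham. The WT sham shares ran from 59.9% to 69.7%, with the highest in WT sham replicate 1, which raised that mean. Gabarap held 21.2 ± 1.03% in cKO TAC and 18.2 ± 1.11% in cKO sham, and 19.0 ± 0.848% in WT TAC and 16.4 ± 0.908% in WT sham. The libraries of TAC and sham were apart for the Gabarap share in both genotypes (exact p = 0.0286 each, two-sided permutation over 70 relabelings, the smallest such a test can give), and the adjusted p over the 20 shares compared was 0.143. The Gabarap share was also higher in cKO TAC than in WT TAC, with the same exact p and adjusted p. So was the Gabarapl2 share in cKO TAC against cKO sham. For TAC against sham, the Map1lc3a share had an exact permutation p of 0.0571 in cKO and 0.0857 in WT mice (adjusted p = 0.143 and 0.171). A share shows unequal change among the transcripts, not which of them changed.

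**Figure D2:**
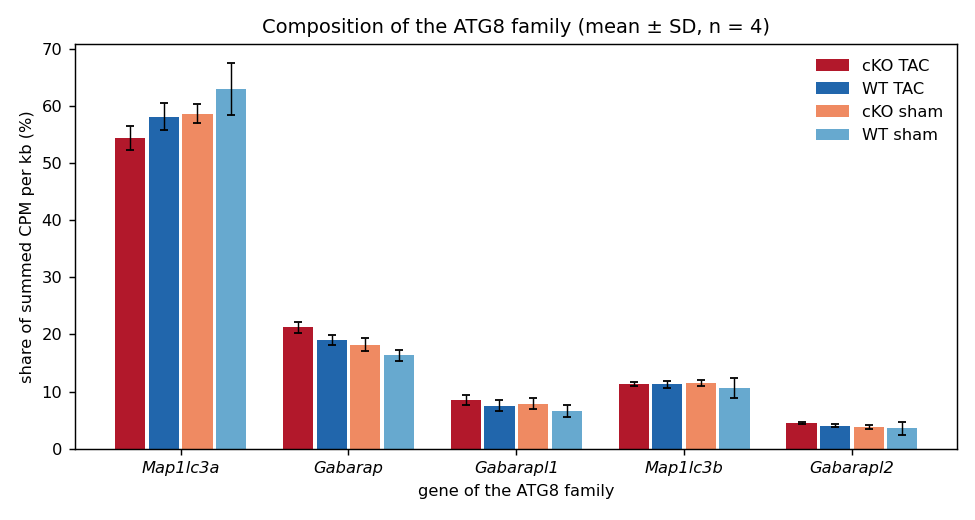
Share of the summed CPM per kb of the 5 ATG8 genes (vertical axis, percent) held by each gene, as mean and SD of 4 libraries in cKO TAC, WT TAC, cKO sham and WT sham. Map1lc3a holds 54.4% to 62.9% in the 4 groups, and Gabarap is highest in cKO TAC at 21.2% and lowest in WT sham at 16.4%. The WT sham mean of Map1lc3a includes replicate 1 at 69.7%.

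Calcoco1 and Optn fell among the receptors, while the most abundant receptor, Sqstm1, did not pass. CALCOCO1 is a receptor for the endoplasmic reticulum and the Golgi, and optineurin (Optn) is a receptor for ubiquitin-tagged mitochondria. Calcoco1 was at 109, 123, 148 and 155 CPM in cKO TAC, against 207, 162, 194 and 221 CPM in cKO sham. WT TAC hearts had 119.7, 140.2, 138 and 160.3 CPM, against 163, 202, 168 and 191 CPM in WT sham. All TAC libraries lay below all sham libraries in both genotypes, by a small margin between the nearest libraries. The log2 fold change of Calcoco1 was -0.55 in cKO (SE 0.12, adjusted p = 0.00353) and -0.38 in WT (SE 0.12, adjusted p = 0.0464), with the WT call lost in 9 of 16 fits that left out 1 library and the cKO call in none.

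Optn was at 46.4, 43.1, 61.8 and 45.5 CPM in cKO TAC, against 74.2, 70.5, 57.5 and 63.8 CPM in cKO sham. In WT TAC it was at 55.6, 60.6, 58.5 and 60.1 CPM, against 70.8, 75.2, 64.2 and 77.9 CPM in WT sham. The WT groups were apart, and cKO TAC replicate 3 lay above cKO sham replicate 3. The fitted log2 fold change was -0.44 in cKO (SE 0.11, adjusted p = 0.00679) and -0.30 in WT (SE 0.11, adjusted p = 0.0702). Sqstm1 averaged 544 ± 33.7 CPM in cKO TAC and 557 ± 65.3 CPM in cKO sham, and 499 ± 62.5 CPM in WT TAC and 468 ± 34.1 CPM in WT sham, with overlapping libraries. Nbr1 and Tax1bp1, further ubiquitin-binding receptors, did not pass.

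Bag3 was the gene of the pathway whose TAC response differed most between genotypes by unadjusted p, and it did not pass the correction. Bag3 was at 290.0, 343, 307 and 321 CPM in cKO TAC, against 359, 361, 316 and 351 CPM in cKO sham. In WT TAC it was at 379.8, 337, 368 and 364 CPM, against 289, 363, 296 and 299.9 CPM in WT sham. The groups overlapped in both genotypes, with WT sham replicate 2 above the other WT sham libraries. The log2 fold change was -0.14 in cKO (adjusted p = 0.275) and 0.21 in WT (adjusted p = 0.110), and the interaction was -0.35 (SE 0.13, unadjusted p = 0.0122, adjusted p = 0.946). In the interaction 0 of 53 autophagy genes and 0 of all tested genes passed in edgeR (background 0%), with 1 autophagy gene and 715 of all tested genes (4.7%) at an unadjusted p under 0.05, and 3 of all tested genes and 0 autophagy genes passed with DESeq2. Without the 2 libraries rich in atrial transcripts 0 autophagy genes passed. The genes with the smallest p in the other roles were Atg4d, Epg5 at 0.33 (unadjusted p = 0.0771), Map1lc3b at -0.16 (0.190), Pik3r4 at -0.14 and Rb1cc1 at 0.13.

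Of 12 partners of BAG3 in chaperone-assisted autophagy, 1 rose and 1 fell in cKO mice and 2 rose and 1 fell in WT mice under TAC, against 14.2% higher and 12.4% lower in cKO and 9.7% higher and 6.14% lower in WT mice among all tested genes. Flnc, the filamin that BAG3 is known to clear in stretched muscle, rose in TAC hearts: 1666 ± 490 CPM in cKO TAC and 956 ± 157 CPM in cKO sham (log2 fold change 0.80, adjusted p = 0.0262), and 1199.9 ± 502 CPM in WT TAC and 589 ± 114 CPM in WT sham (1.03, adjusted p = 0.0119). Hspb8, the small heat shock partner of BAG3, did not pass (-0.06 in cKO, adjusted p = 0.716; 0.22 in WT, adjusted p = 0.135). The ubiquitin ligase Stub1 (CHIP) had log2 fold changes of -0.36 in cKO (adjusted p = 0.00799) and -0.21 in WT mice (adjusted p = 0.117). The co-chaperone Bag2 had 0.33 in cKO (adjusted p = 0.0830) and 0.48 in WT mice (adjusted p = 0.0257), and Bag1 had -0.35 in cKO (adjusted p = 0.0550) and -0.40 in WT mice (adjusted p = 0.0398). Flnc (0.59, adjusted p = 0.0474) and Synpo2, a scaffold that BAG3 binds (0.42, adjusted p = 0.0124), were higher in cKO than in WT hearts in the mean of both surgeries.

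In the fusion group 1 of 12 genes passed, lower in the mean of both genotypes (background 18.6% lower and 20.2% higher). Tecpr1, a tether that binds the ATG12-ATG5 conjugate, was at 52.2, 51.6, 52.3 and 56.2 CPM in cKO TAC, against 60.7, 58.0, 58.4 and 66.4 CPM in cKO sham. In WT TAC it was at 61.5, 63.7, 57.3 and 51.3 CPM, against 76.3, 56.6, 72.4 and 76.3 CPM in WT sham. The cKO groups were apart and the WT groups overlapped through WT sham replicate 2, and the mean log2 fold change was -0.23 (SE 0.068, adjusted p = 0.0114). The HOPS tethering subunits Vps11, Vps16, Vps18, Vps33a, Vps39 and Vps41, the SNAREs Stx17 and Snap29, and Plekhm1, Rab7 and Epg5 did not pass.

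**Figure D3:**
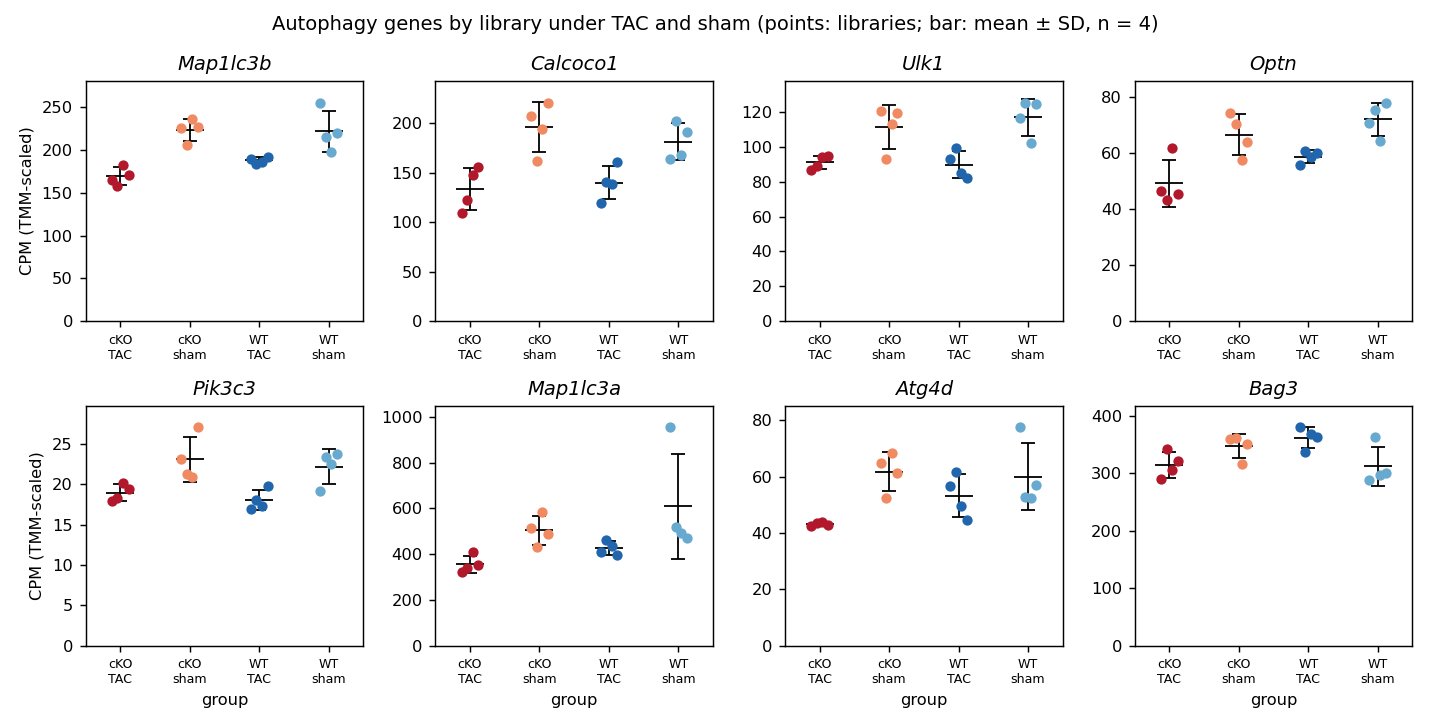
CPM after TMM scaling (vertical axis, from 0) of 8 autophagy genes in each library, by group; points are libraries, bars are mean and SD of 4. For Map1lc3b, Map1lc3a and Calcoco1 all TAC points lie below all sham points within each genotype, and WT sham replicate 1 stands at 954 CPM for Map1lc3a.

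Counting libraries rather than tests, the TAC libraries lay wholly below the sham libraries for 9 of 53 genes in cKO mice (17%, against 13.8% of all tested genes) and for 6 genes in WT mice (11.3%, against 8.44%), and for 0 genes wholly above (background 15.5% in cKO and 11% in WT mice). In both genotypes at once this held for Map1lc3a, Map1lc3b and Calcoco1, 5.66% of the autophagy genes, against 4.67% of all tested genes. The shares below sham were near the background, and the shares above sham, with 0 genes, were under it.

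The direction of these changes depended on how libraries were scaled. TMM factors averaged 1.09 in cKO TAC and 0.955 in cKO sham, and 1.02 in WT TAC and 0.939 in WT sham, while the share of counts from mitochondrially encoded genes averaged 17.3% and 22.6%, and 19.8% and 23.5%, in the same order. With library totals alone the median of all tested genes shifted up by 0.19 in cKO and by 0.12 in WT mice on the log2 scale. The calls were then 3 higher and 3 lower in cKO mice, 2 higher and 0 lower in WT mice, and 8 higher and 5 lower in the mean. In cKO mice these were Wipi1, Atg5 and Epg5 higher and Map1lc3b, Calcoco1 and Atg4d lower, and in WT mice Wipi1 and Bag3 higher, with Ulk1 at an adjusted p of 0.0666. The 5 that were lower in the mean under both scalings were Ulk1, Map1lc3a, Map1lc3b, Optn and Calcoco1. Relative to the median of all tested genes the values hardly moved: Map1lc3b in cKO mice was at -0.41 under TMM and -0.40 under library totals, and Ulk1 in WT mice at -0.37 and -0.36. Under both scalings 38 of 53 autophagy genes lay below that median in cKO mice, and in WT mice 40 under TMM and 39 under library totals. A change of scaling moves all genes by nearly the same amount. Values relative to the median could therefore hardly move, and they are no separate check of the calls.

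**Figure D4:**
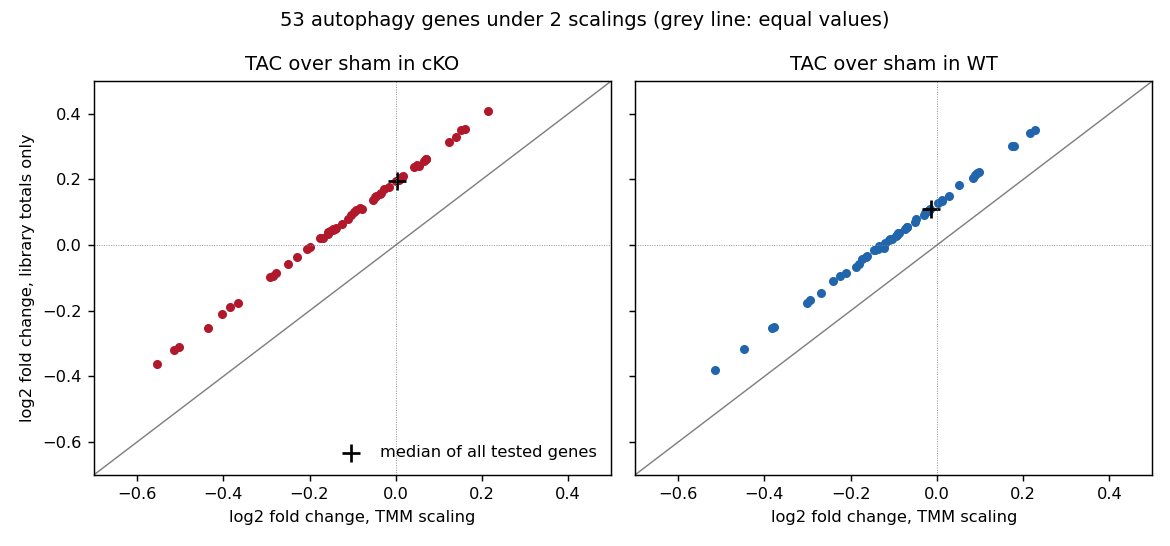
Log2 fold change of TAC over sham for the 53 autophagy genes with library totals alone (vertical axis) against TMM scaling (horizontal axis), in cKO mice on the left and WT mice on the right; the cross is the median of all tested genes. All points and the cross lie above the line of equal values by about the same distance, 0.19 in cKO and 0.12 in WT mice.

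Between genotypes few autophagy genes were called, and 0 were called lower in cKO than in WT hearts. Between cKO and WT in TAC hearts 0 of 53 genes passed in edgeR (background 0.598% higher and 1.18% lower), with 3 higher and 4 lower at an unadjusted p under 0.05 (17.4% of all tested genes in either direction), and 0 with DESeq2. Between cKO and WT in sham hearts 0 of 53 passed (background 0.618% higher and 0.552% lower), with 2 higher and 1 lower at an unadjusted p under 0.05 (15% of all tested genes), and 0 with DESeq2. The median log2 fold change of the autophagy genes was 0.01 in TAC and 0.03 in sham hearts, against 0.00 and -0.01 for all tested genes. In the mean of both surgeries 1 gene passed, higher in cKO (background 4.21% higher and 4.85% lower), with 5 higher and 5 lower at an unadjusted p under 0.05 (24.5% of all tested genes). Without the 2 libraries rich in atrial transcripts the counts were 0 in TAC hearts, 0 in sham hearts, and 1 higher and 0 lower in the mean of both surgeries. The 95% intervals of 46 of 53 genes in TAC hearts and 49 of 53 in sham hearts lay inside 0.5 on either side of zero on the log2 scale; an interval that includes zero does not show equal levels.

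The gene that rose was Atg13, the regulatory subunit that ties ULK1 to its scaffold. Atg13 was at 115, 106, 77.7 and 85.2 CPM in cKO TAC, against 81.8, 74.5, 73.7 and 72.0 CPM in WT TAC. In cKO sham it was at 113, 105, 84.8 and 104 CPM, against 82.4, 80.8, 76.9 and 67.1 CPM in WT sham. All cKO sham libraries lay above all WT sham libraries, and in TAC hearts cKO replicate 3 lay within the WT range. The fitted log2 fold change was 0.35 in TAC (SE 0.12, adjusted p = 0.123), 0.41 in sham (SE 0.12, adjusted p = 0.101) and 0.38 in the mean of both surgeries (SE 0.084, 95% interval 0.20 to 0.55, adjusted p = 0.0103; edgeR). The mean call was kept in each of the 16 fits that left out 1 library, with log2 fold changes between 0.32 and 0.42, and in each scaling tried. Ulk1, its partner kinase, was at 0.02 in TAC (adjusted p = 0.946) and -0.07 in sham hearts (adjusted p = 0.792).

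No other gene passed between genotypes, and the genes with the smallest p in each role group are given here. In sham hearts Sqstm1 averaged 557 ± 65.3 CPM in cKO and 468 ± 34.1 CPM in WT (log2 fold change 0.25, 95% interval 0.03 to 0.47, adjusted p = 0.259), and Map1lc3a had a log2 fold change of -0.27 with WT sham replicate 1 and 0.03 without it. Tecpr1 had -0.21 (adjusted p = 0.311), Atg5, part of the conjugate that recruits ATG8 proteins, -0.21 (adjusted p = 0.358), and Rubcn (Rubicon, an inhibitor of the lipid kinase complex) 0.22 (adjusted p = 0.371). In TAC hearts Vps11, a subunit of the HOPS and CORVET tethers, had 0.23 (adjusted p = 0.216), Atg4d -0.30 (adjusted p = 0.226), Optn -0.26 (adjusted p = 0.228) and Map1lc3b -0.15 (adjusted p = 0.378). Becn1, the Beclin-1 subunit of the lipid kinase complex, was at 49.6, 49.1, 46.5 and 45.8 CPM in cKO TAC, against 42.6, 42.9, 40.5 and 41.1 CPM in WT TAC. The groups were apart for Becn1 and the log2 fold change was 0.19 (adjusted p = 0.300). In the mean of both surgeries Uvrag, a subunit of the lipid kinase complex, had 0.20 (adjusted p = 0.122), Sqstm1 0.19 (adjusted p = 0.121), Atg10 -0.19 (adjusted p = 0.195), Tecpr1 -0.17 (adjusted p = 0.118) and Map1lc3a -0.27 (adjusted p = 0.200). In TAC hearts 1 autophagy gene lay wholly above and 2 wholly below WT (background 4.89% and 5.11%), and in sham hearts 1 and 1 (background 4% and 3.59%).

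TFEB is known to bind the CLEAR motif, whose core TCACGTGA holds the E-box CACGTG, so promoter windows of the autophagy genes were searched for both, on both strands. Windows of 250 bases before to 50 after the gene's start were taken from RefSeq (build GRCm38.p6); 43 of 53 genes had at least 1, in 51 windows. Wdr45b, Atg12, Becn1, Epg5, Vps39, Rb1cc1, Pik3c3, Map1lc3a, Atg16l1 and Vps11 had none in the table. The core was in 3 of 51 windows (5.88%), against 0.974% of all 32851 windows, and the E-box in 7 (13.7%), against 7.15%. The windows of the autophagy genes also had more G and C, a median of 61% against 52.7%. The 3 genes with the core were Vps16 and Vps33a, which encode HOPS subunits, and Atg3, the E2-like enzyme that attaches ATG8 proteins to lipid; Vps16 and Vps33a also held the longer CLEAR palindrome, which extends the core by 1 base on each side and was found in 0.326% of all windows. Their sequences are shown because these are the letters TFEB is known to read, and that of Atg13 because it was the gene that passed between genotypes. Each is the 250 bases before the start, 5′ to 3′ on the gene's strand, with E-boxes and CLEAR matches in capitals. Atg13 held neither motif in its window. Of 4 further motifs searched in the same windows, the forkhead motif GTAAACA was in 0 of 51 (3.65% of all windows), the MEF2 motif in 1.96% (Nbr1; 3.69% of all), the heat shock element in 0 (0.603% of all) and the cyclic AMP element TGACGTCA in 1.96% (Atg5; 1.79% of all).
Vps16, chr2:130424070-130424319, plus strand: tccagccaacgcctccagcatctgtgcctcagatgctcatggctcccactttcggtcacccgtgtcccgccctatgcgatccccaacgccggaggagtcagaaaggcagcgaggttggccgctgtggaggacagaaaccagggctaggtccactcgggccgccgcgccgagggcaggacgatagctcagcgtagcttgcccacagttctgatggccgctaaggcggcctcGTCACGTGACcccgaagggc
Vps33a, chr5:123573016-123573265, minus strand: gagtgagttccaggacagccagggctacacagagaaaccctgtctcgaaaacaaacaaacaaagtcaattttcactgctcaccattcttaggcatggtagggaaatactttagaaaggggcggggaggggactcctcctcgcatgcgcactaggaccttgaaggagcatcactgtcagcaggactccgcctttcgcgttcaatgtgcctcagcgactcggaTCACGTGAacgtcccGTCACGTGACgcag
Atg3, chr16:45158579-45158828, plus strand: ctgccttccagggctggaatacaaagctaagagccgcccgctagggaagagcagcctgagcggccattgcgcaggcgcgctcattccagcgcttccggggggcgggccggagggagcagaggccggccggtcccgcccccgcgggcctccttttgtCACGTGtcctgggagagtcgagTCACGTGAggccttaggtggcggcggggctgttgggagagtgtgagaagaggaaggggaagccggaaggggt
Atg13, chr2:91710593-91710842, minus strand: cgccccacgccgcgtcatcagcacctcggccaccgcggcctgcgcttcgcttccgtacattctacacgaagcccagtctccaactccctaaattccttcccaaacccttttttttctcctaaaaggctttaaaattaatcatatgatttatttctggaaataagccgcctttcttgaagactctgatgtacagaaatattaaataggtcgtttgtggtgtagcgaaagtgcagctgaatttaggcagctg

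The 3 genes with the core did not pass in any comparison between genotypes. Vps16 averaged 20.7 ± 1.33 CPM in cKO TAC and 20.2 ± 1.39 CPM in WT TAC, and 21.4 ± 1.91 CPM in cKO sham and 23.6 ± 3.41 CPM in WT sham. Vps33a averaged 30.7 ± 2.01 CPM in cKO TAC and 30.9 ± 2.01 CPM in WT TAC, and 34.0 ± 3.96 CPM in cKO sham and 32.9 ± 2.05 CPM in WT sham. Atg3 averaged 27.5 ± 2.30 CPM in cKO TAC and 27.3 ± 1.30 CPM in WT TAC, and 30.0 ± 2.39 CPM in cKO sham and 27.7 ± 2.85 CPM in WT sham. In the mean of both surgeries the log2 fold changes were -0.05 for Vps16 (95% interval -0.21 to 0.10), 0.02 for Vps33a (-0.12 to 0.15) and 0.06 for Atg3 (-0.08 to 0.20). A motif match is a description of the letters, and binding was not measured here.

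**Figure D5:**
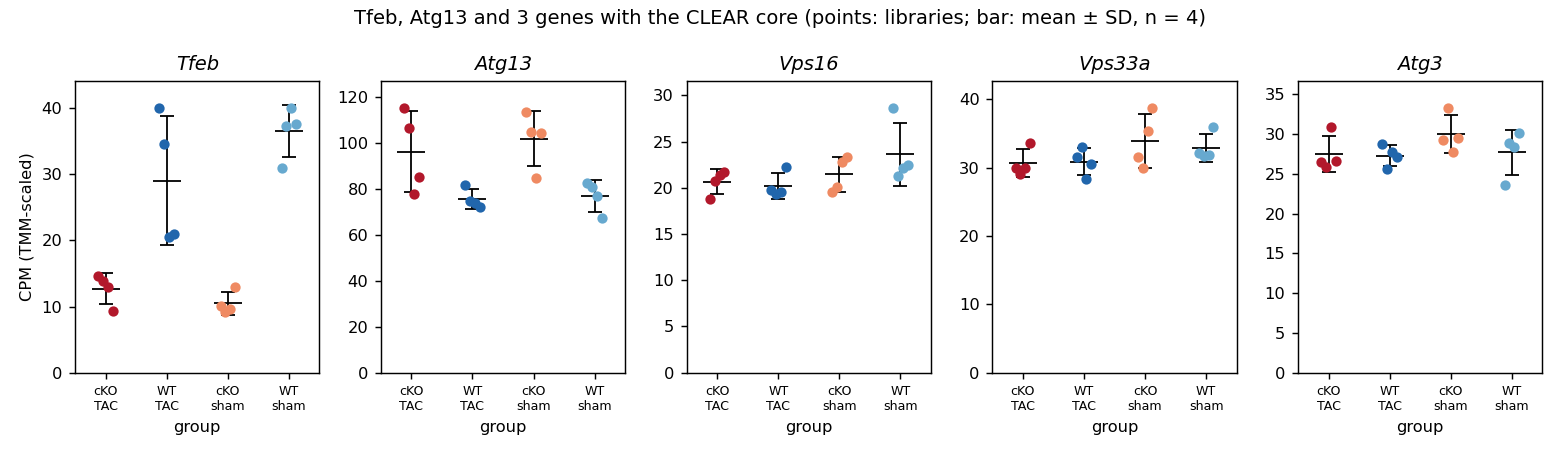
CPM after TMM scaling (vertical axis, from 0) of Tfeb, Atg13 and the 3 autophagy genes with the CLEAR core in their promoter window, by library; points are libraries, bars are mean and SD of 4. Tfeb is lower in both cKO groups, Atg13 lies higher in cKO with overlap in TAC hearts, and Vps16, Vps33a and Atg3 overlap between genotypes.

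Other genes of the pathway were followed in lists chosen by symbol. These lists too were drawn up with earlier results of these data known, so their counts are descriptive. Of 20 genes of mTORC1 and AMPK, the kinases that restrain and activate ULK1, 6 fell and 2 rose in cKO TAC against cKO sham, and 3 fell and 0 rose in WT TAC against WT sham. Of all tested genes 12.4% fell and 14.2% rose in cKO mice, and 6.14% fell and 9.7% rose in WT mice, and this background holds for the 2 lists that follow as well. Prkag1, a regulatory subunit of AMPK, averaged 22.02 ± 1.27 CPM in cKO TAC and 36.1 ± 6.80 CPM in cKO sham, and 29.5 ± 2.54 CPM in WT TAC and 41.1 ± 11.4 CPM in WT sham (log2 fold change -0.71, adjusted p = 0.00276 in cKO; -0.48, adjusted p = 0.0411 in WT). Prkab1, a scaffold subunit of AMPK, averaged 26.1 ± 3.74 CPM in WT TAC and 41.4 ± 7.01 CPM in WT sham (-0.66, adjusted p = 0.00311), with -0.31 in cKO mice (adjusted p = 0.103), and it was also lower in cKO sham at 27.8 ± 3.30 CPM, against WT sham (-0.57, adjusted p = 0.0414). Prkab2, its paralog, rose in cKO mice: 124 ± 49.6 CPM in cKO TAC and 57.4 ± 13.0 CPM in cKO sham (1.11, adjusted p = 0.00382), with 0.55 in WT mice (adjusted p = 0.131). In the mean of both surgeries Prkab1 was lower (-0.40, adjusted p = 0.0161) and Prkab2 higher (0.70, adjusted p = 0.0196) in cKO than in WT hearts. Stk11 (LKB1), the kinase upstream of AMPK, fell in both genotypes (-0.37 in cKO, adjusted p = 0.00756; -0.35 in WT, adjusted p = 0.0171). Tbc1d7, a subunit of the TSC complex that restrains mTORC1, had -0.39 in cKO (adjusted p = 0.00616) and 0.05 in WT mice (adjusted p = 0.778). In the interaction 0 genes of these lists passed.

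Of 18 further receptors and mitophagy genes, 5 fell and 2 rose in cKO mice and 2 fell and 0 rose in WT mice under TAC. Pink1, the kinase that marks damaged mitochondria for removal, was at 380.1 ± 56.5 CPM in cKO TAC and 723 ± 84.3 CPM in cKO sham, and at 508 ± 74.5 CPM in WT TAC and 888 ± 183 CPM in WT sham. The libraries were apart in both genotypes, with log2 fold changes of -0.93 (SE 0.15, adjusted p = 0.000311) and -0.81 (SE 0.15, adjusted p = 0.00165). Pink1 was also lower in cKO than in WT in the mean of both surgeries (-0.36, adjusted p = 0.0417), as was the adaptor Tollip (-0.21, adjusted p = 0.0367), while the glycogen receptor Stbd1 was higher (0.57, adjusted p = 0.0202). Under TAC the endoplasmic reticulum receptor Retreg1 fell in both genotypes (-0.58 in cKO, adjusted p = 0.0183; -0.52 in WT, adjusted p = 0.0475). Wdfy3 (ALFY), a scaffold of aggregate clearance, had 0.38 in cKO (adjusted p = 0.00330) and 0.12 in WT mice (adjusted p = 0.355). Phb2, an inner-membrane mitophagy receptor, had -0.35 in cKO (adjusted p = 0.0103) and -0.08 in WT mice (adjusted p = 0.573). Bnip3, a mitophagy receptor of the outer mitochondrial membrane, had log2 fold changes of -0.21 in cKO (adjusted p = 0.342) and -0.41 in WT mice (adjusted p = 0.0812). Among the relatives of TFEB, Mitf fell under TAC in both genotypes, and Tfe3 passed in cKO mice. Mitf was also lower in cKO than in WT hearts in the mean of both surgeries (-0.30, edgeR adjusted p = 0.0420). Mitf averaged 26.1 ± 2.04 CPM in cKO TAC and 39.5 ± 5.85 CPM in cKO sham (-0.59, adjusted p = 0.00220), and 33.3 ± 2.25 CPM in WT TAC and 46.7 ± 9.10 CPM in WT sham (-0.49, adjusted p = 0.0128). Tfe3 averaged 22.1 ± 2.58 CPM in cKO TAC and 18.3 ± 1.18 CPM in cKO sham (0.27, adjusted p = 0.0463), with 0.25 in WT mice (adjusted p = 0.0828). Of 18 further fusion and trafficking genes, 2 fell and 1 rose in cKO mice and 1 fell and 0 rose in WT mice, among them Rilp, the RAB7 effector, at -0.57 in cKO (adjusted p = 0.00388) and -0.26 in WT mice (adjusted p = 0.184), and Arl8a, a lysosomal GTPase, at 0.39 in cKO (adjusted p = 0.00673) and 0.29 in WT mice (adjusted p = 0.0546). Vti1b, a SNARE, fell in both genotypes (-0.32 in cKO, adjusted p = 0.0252; -0.33 in WT, adjusted p = 0.0305).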

How the data were processed

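RNA was measured by bulk sequencing of left ventricle, in libraries that the labels call biological replicates. The values deposited by the authors are whole-number counts by gene for the 16 libraries, without normalization. According to the submitters' processing notes, the tools were featureCounts 2.0.6, HISAT2 2.0.5, SAMtools 1.21, fastp 0.22.0 and FastQC, with GRCm39 as the build. Whether the counting used strand, which annotation release it used and what became of multi-mapping reads are not given in the sources used here, so genes whose exons overlap cannot be told apart. Of the 57186 gene IDs 51880 matched a symbol in a GRCm38 annotation, which also gave transcript lengths (the longest transcript of the best principal-isoform class).

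The counts were fitted with edgeR 4.0.16 (R 4.3.3): filterByExpr, TMM, and 1 robust quasi-likelihood fit to all 16 libraries with 1 mean per group and 12 residual degrees of freedom, in 7 comparisons. P-values were adjusted by Benjamini-Hochberg over all 15206 tested genes and 0.05 was the threshold. The SE came from the F statistic, and the 95% intervals from it. CPM values are scaled by library total times TMM factor. The model was run on simulated counts with known changes in a small part of the genes. Far more genes were called under TAC here, so that run does not vouch for these calls. Genes of the autophagy list and of the other lists were chosen with earlier results of these data known. Named autophagy genes were those that passed in any comparison and the gene of each role with the smallest p in each comparison; for the other lists, up to 3 genes per list and comparison that passed, with Hspb8, Pink1 and Bnip3 always. The labels do not say that replicate numbers pair the mice, so the main fit had no block. Deviations from the group means of same-numbered libraries correlated between -0.16 and 0.23, and 4 of 16 pairs passed 0.1. Of the 16 pairs, 7 correlated best with their own number, so a pairing was not excluded. P-values set a difference against the spread between these libraries, estimated over all 4 groups and moderated across genes. Alternatives were DESeq2 1.42.0 size factors and Wald test, library totals, no filter, a filter of 1 CPM in 4 libraries, leaving out mitochondrially encoded genes, the compared groups alone, the replicate block and each library left out.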

Additional observations from a re-analysis of the deposited data

Results flagged for a closer look

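In 9 of 104 groups of 4 libraries tested, 1 library stood far from the other 3 by Dixon's gap test at the 95% level; chance gives about 1 in 20. Map1lc3a was at 954 CPM in WT sham replicate 1, with the nearest library at 520.0 CPM. Atg16l1 was at 45.3 CPM in the same library, above the rest of its group at 38.3 to 39.4 CPM. In WT sham replicate 2 Bag3 was high at 363 CPM, against 299.9 CPM for the nearest, and Rubcn was low at 41.3 CPM, against 52.6 CPM for the nearest. Becn1 was high in cKO sham replicate 2 at 53.3 CPM, with the nearest at 44.0 CPM. Sqstm1 was low in cKO TAC replicate 3 at 494 CPM, with the nearest at 556 CPM. Tecpr1 was high in cKO TAC replicate 4 at 56.2 CPM, with the nearest at 52.3 CPM. Wdr45 was low in cKO TAC replicate 2 at 8.53 CPM, with the nearest at 13.4 CPM, and high in WT TAC replicate 4 at 13.5 CPM, with the nearest at 11.5 CPM.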

How the results depend on the processing

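The counts of autophagy genes called were within 1.5 times the main count under the alternatives that kept all libraries, with these exceptions; library totals changed the directions, as given with the results. For TAC over sham in WT mice the DESeq2 Wald test called 7 genes, against 2, and in cKO mice the fit with no filter called 4, against 9. Under the replicate block 1 gene, Atg13, passed between cKO and WT in sham hearts (adjusted p = 0.0416), against 0, and 7 of 16 same-numbered pairs correlated best with their own number. The counts over all tested genes moved further. Between cKO and WT in sham hearts DESeq2 called 546 genes, against 178. Between cKO and WT in TAC hearts 438 genes passed with no filter, 823 with DESeq2 and 152 with the compared groups alone, against 271. Leaving out the 2 libraries rich in atrial transcripts, chosen after seeing the data, gave 165 there. In the interaction DESeq2 called 3 genes and the same 2 libraries left out gave 2, against 0.

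Leaving out 1 library at a time, the autophagy genes called ranged from 4 (without cKO TAC replicate 1) to 11 (without WT sham replicate 1) in cKO mice and from 1 (without WT TAC replicate 1) to 5 (without WT sham replicate 3) in WT mice for TAC over sham, from 11 to 16 in the mean of both genotypes, from 0 to 2 between cKO and WT in TAC hearts and from 1 to 2 in the mean of both surgeries, and were 0 throughout between cKO and WT in sham hearts and in the interaction. All tested genes called ranged from 2720 to 4633, from 1234 to 2477, from 5205 to 6035, from 13 (without WT TAC replicate 2) to 912 (without cKO TAC replicate 3) and from 819 to 1845 in the same order, and from 59 to 222 between cKO and WT in sham hearts.

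Reversals were few. Tfeb in the mean of TAC over sham, at -0.02, was at 0.14 with library totals, 0.063 without the libraries rich in atrial transcripts, and between -0.13 and 0.042 with 1 library left out. Map1lc3a between cKO and WT in sham hearts was between -0.38 and 0.032, the highest without WT sham replicate 1. Calls lost without 1 library were, in cKO mice, Ulk1 and Atg10 (each of cKO TAC replicates 1 and 2 and cKO sham replicates 1, 3 and 4), Atg2a (these and cKO TAC replicate 4), Map1lc3a (these 6 and WT TAC replicate 3) and Pik3c3 (cKO TAC replicates 1, 2 and 4, WT TAC replicates 2 and 3, cKO sham replicates 1 and 4, and WT sham replicates 2 and 3), and in WT mice Calcoco1 (cKO TAC replicate 2, WT TAC replicates 1 to 3, cKO sham replicates 1, 3 and 4, and WT sham replicates 2 and 4; adjusted p up to 0.152). In the mean of both genotypes Atg2a was lost without cKO sham replicate 1, Gabarapl1 without 9 libraries (adjusted p up to 0.0821), Pik3r4 without 10 (up to 0.101) and Wipi1 without 11 (up to 0.0906). Without cKO TAC replicate 3, Atg13 (adjusted p = 0.0310) and Optn (adjusted p = 0.0244) passed between cKO and WT in TAC hearts. The spread between 4 libraries a group limits which small changes could be called.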
